A study of Mus musculus with 2 samples.

Results

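The genes examined here encode proteins that detect RNA or DNA in the cytosol, together with their direct adaptor and the enzymes that edit or degrade the nucleic acids they detect. They were chosen by symbol and comprise 10 of the 31053 genes in the count tables: Ddx58, Ifih1, Dhx58, Mavs, Zbp1, Eif2ak2, Adar, Aim2, Trex1 and Samhd1. They were measured in mouse acute myeloid leukemia driven by AML1-ETO9a (AE9a), a truncated AML1-ETO fusion delivered by retrovirus and marked with GFP. The leukemia cells carried floxed Usp18 and UBCER-Cre, which becomes active in all tissues upon tamoxifen. Recipients received oil or tamoxifen once sick, and GFP+ Lin- c-Kit+ spleen cells were sorted 3 days after the first injection and profiled by 10x single-cell RNA sequencing. Both groups thus carried the leukemia, the floxed gene and the recombinase. They differed in the injection, and the labels give neither the age of the recipients nor which cells came from which mouse. The labels disagree on the genotype: the genotype field reads Usp18f/f for oil and Usp18delta/delta for tamoxifen, and the treatment field Usp18f/f with UBCER-Cre for both, whereas the treatment protocol names Usp18+/f cells and a heterozygous loss. Cells of 3 mice were pooled per group into 1 library, so each comparison is between the oil-labelled library and the tamoxifen-labelled library, with no replicate and no test.

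RIG-I-like receptors recognise double-stranded or uncapped RNA in the cytosol and signal through the adaptor MAVS, which sits on the outer membrane of mitochondria, to induce type I interferon. PKR and ADAR act on double-stranded RNA as well, the first by halting translation and the second by converting adenosine to inosine so that a cell's own RNA is not read as foreign. AIM2 and ZBP1 link cytosolic DNA and Z-form nucleic acid to inflammatory cell death, whereas TREX1 and SAMHD1 limit the nucleic acid that can be sensed. Many of these genes are themselves induced by interferon, and USP18, the protein whose gene was targeted, dampens the response of cells to type I interferon.

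Interferon acts on its target genes through the interferon-stimulated response element (ISRE), so the stretches around each match to it are shown for the sensor genes that hold one. RefSeq promoter windows on GRCm38.p6, each 250 bases before and 50 after a start site, were at hand for 8 of the 10 genes, with 11 windows in all. Zbp1 and Dhx58 had no entry. The letters GAAANNGAAA were searched on both strands, and they occurred in 1131 of 32851 windows (3.44%). Ifih1, Ddx58 and Eif2ak2 held a match, in each case just after the start site and so within the transcribed 5′ part of the gene. Each sequence is written 5′ to 3′ on the strand of the gene, which is the minus strand for all of them, with the match in capitals.
Ifih1, chr2:62646206-62646233: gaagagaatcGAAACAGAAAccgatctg
Ddx58, chr4:40239804-40239833: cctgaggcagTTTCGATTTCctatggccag
Eif2ak2, chr17:78882535-78882564: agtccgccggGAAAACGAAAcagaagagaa
The match covered bases 33 to 42 of the Ifih1 transcript, bases 3 to 12 of the Ddx58 transcript, where it lay on the opposite strand, and bases 19 to 28 of the Eif2ak2 transcript, counting from 1 at the start site. Windows of Mavs, Adar, Aim2, Trex1 and Samhd1 did not hold these letters.

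After filtering, the oil-labelled library held 6838 cells and 66045700 UMIs and the tamoxifen-labelled library 6472 cells and 60661486 UMIs, with median depths of 8622.5 and 8209.5 UMIs per cell. Each UMI stands for 1 captured transcript, and CPM scales the UMIs of a gene to the total of its library. Intervals are 95% exact intervals and cover counting error only. Usp18 had 371 UMIs (5.62 CPM) in the oil-labelled library and 933 (15.4 CPM) in the tamoxifen-labelled library, a log2 ratio of 1.45 (1.28 to 1.63). The targeted gene was therefore higher where the labels place its deletion, and this does not check the labels, since 3′ reads cannot show a deletion further upstream. Isg15, an interferon-induced gene, was at 47.8 and 113.5 CPM, with a ratio of 1.25 (1.19 to 1.31) on the log2 scale. The libraries also differed in ribosomal protein genes, which took 24.4% and 28.1% of UMIs, and in cell cycle phases, of which G1 took 44.2% and 56.7% of cells. They shared 14 cell barcodes, 12 of them among the kept cells, and without these no sensor gene ratio left its counting interval. Kit, the receptor used in the sort, was at 171.2 and 231.7 CPM. Of the defining genes of other blood cells, 4 of 6 neutrophil genes and 4 of 6 T and NK cell genes were at 0 UMIs in both libraries. The neutrophil list summed to 1 UMI in each library, the T and NK cell list to 29 and 39 UMIs, of which Nkg7 gave 29 and 38, and 5 B cell genes to 14 and 13 UMIs. Of 7 dendritic cell genes, 4 were at 0, and the list summed to 76.2 and 89.99 CPM, mostly from Bst2, which interferon also induces (4729 and 5146 UMIs), and from Ccr9 (301 and 312 UMIs). Monocyte and macrophage genes summed to 7.66 and 7.80 CPM, whereas mast cell and basophil genes summed to 2378 and 2006 CPM and erythroid genes to 7851 and 9217 CPM. The part of these shifts in the ratios below was not tested beyond the values given within phases and clusters.

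All RIG-I-like receptors were higher in the tamoxifen-labelled library, as were ADAR, PKR and SAMHD1 transcripts to a smaller degree, whereas the intervals of Mavs and Aim2 included 0 and Zbp1 and Trex1 were close to undetected. A ratio needed at least 100 UMIs over the libraries together, which 8 of the 10 sensor genes and 10527 genes in all reached. Dhx58 and Ddx58, 2 of the 8, were at least 1.5-fold higher, against 2.09% of all genes, and none was at least 1.5-fold lower, against 1.27%. The ratio was above 0 for 6 of the 8, against 38.3% of all genes. For the same 6 the interval of the ratio lay above 0, against 19.3% of all genes, and for none did it lie below 0, against 39.8%. In the 673 and 771 cells with 1000 or more genes and no more than 5% mitochondrial UMIs, the interval lay above 0 for 4 of the 7 sensor genes that were given a ratio there, and those of Eif2ak2 and Adar included 0. The share over all genes was not taken in these fewer cells, so this count has no reference. The median log2 ratio was 0.31 over the 8 sensor genes and -0.063 over all genes. Other scalings raised every log2 ratio by 0.063 to 0.081, so that Mavs came to -0.0037 with TMM, -0.0061 with median-ratio scaling and 0.011 with ribosomal protein and mitochondrial genes left out of the total. Summed over the members, the level was 223.9 CPM (220.3 to 227.5) and 268.5 CPM (264.4 to 272.6), a log2 ratio of 0.26 (0.23 to 0.29).

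**Figure D1:**
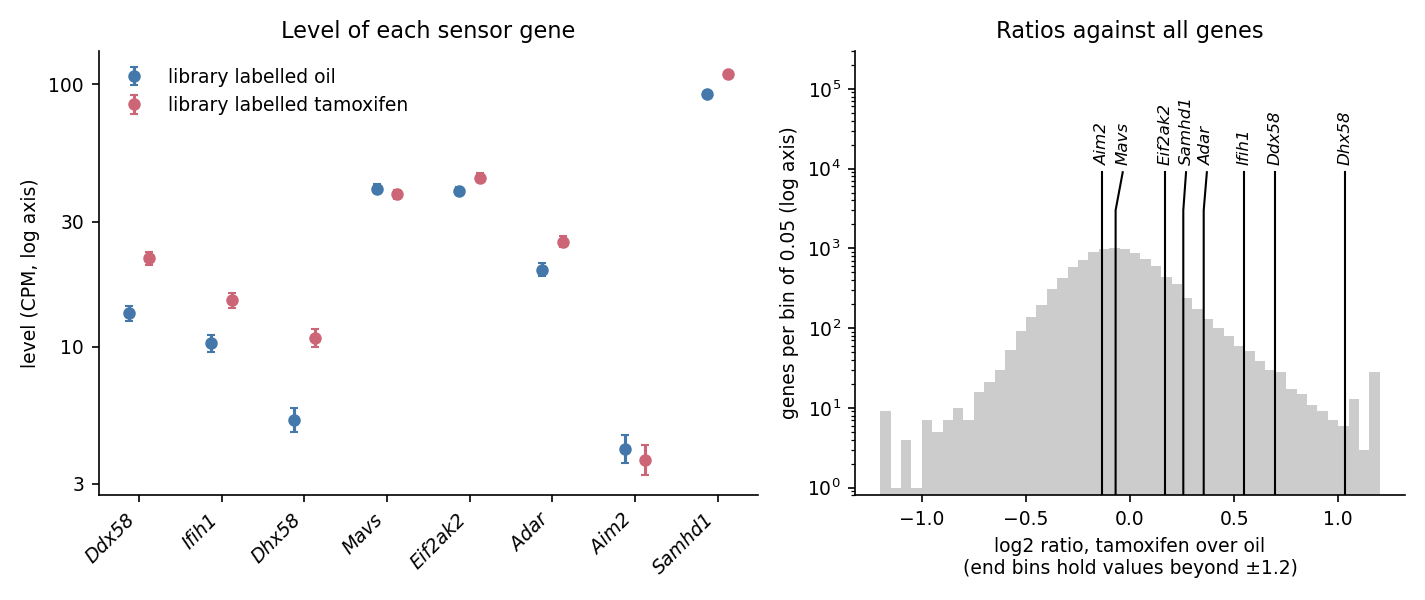
Left, level in CPM on a log axis of the 8 sensor genes that reached 100 UMIs, by library, with 95% exact Poisson intervals; right, their log2 ratios of tamoxifen over oil (lines) against the number of genes per bin among 10527 genes (bars, log axis). The intervals of the libraries do not overlap for Ddx58, Ifih1, Dhx58, Eif2ak2, Adar and Samhd1, and Dhx58 at 1.03 lies farthest to the right. Overlap of these intervals was not counted over all genes.

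Dhx58, which encodes LGP2, a RIG-I-like receptor without the signaling domain that modulates the other members of its family, showed the highest ratio. It had 348 UMIs in the oil-labelled library, or 5.27 CPM (4.73 to 5.85), and 654 UMIs in the tamoxifen-labelled library, or 10.8 CPM (9.97 to 11.6). Its ratio on the log2 scale was 1.03 (0.84 to 1.22), rank 46 among the 10527 genes, and Dhx58 was the only sensor gene of the 8 that was at least 2-fold higher, against 0.475% of all genes. Its interval reached below 2-fold, and so did the ratio itself as the mean within phases (0.93), with equal weight per cell (0.86), with clusters weighted alike (0.63), without clusters 5 and 7 (0.94) and without the cells of highest Scrublet score (0.99). Dhx58 lies on the minus strand of chromosome 11 from 100694884 to 100704271 (GRCm38). Its antisense partner Dhx58os had 0 and 2 UMIs.

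Ddx58, which encodes RIG-I, the receptor for short double-stranded RNA with a free 5′ triphosphate, followed. It had 884 UMIs (13.4 CPM, 12.5 to 14.3) in the oil-labelled library and 1318 UMIs (21.7 CPM, 20.6 to 22.9) in the tamoxifen-labelled library. Its log2 ratio was 0.70 (0.57 to 0.82), higher than that of 98.7% of genes. Ifih1, which encodes MDA5, the receptor for long double-stranded RNA, had 680 UMIs (10.3 CPM, 9.54 to 11.1) and 914 UMIs (15.1 CPM, 14.1 to 16.1). The log2 ratio of Ifih1 was 0.55 (0.40 to 0.69), or 1.46-fold, just under the threshold of 1.5. The interval of the Ddx58 ratio reached down to 0.57, below the log2 of 1.5, so counting error alone can place either gene on the other side. Ddx58 lies on chromosome 4 from 40203773 to 40239828 and Ifih1 on chromosome 2 from 62595798 to 62646255, both on the minus strand.

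Mavs, the adaptor through which RIG-I and MDA5 signal, had 2642 UMIs in the oil-labelled library and 2313 in the tamoxifen-labelled library. Its levels were 40.0 CPM (38.5 to 41.6) and 38.1 CPM (36.6 to 39.7), and its log2 ratio of -0.069 (-0.15 to 0.012) was near the median of all genes. Its interval included 0, whereas those of the receptors that signal through it did not. Mavs is a plus-strand gene of chromosome 2 from 131234063 to 131248025.

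Of the genes that act on double-stranded RNA by other means, Adar showed the larger ratio. Adar, the RNA editing enzyme, had 1299 UMIs (19.7 CPM, 18.6 to 20.8) and 1525 UMIs (25.1 CPM, 23.9 to 26.4), which is a ratio of 0.35 (0.25 to 0.46) on the log2 scale. Eif2ak2, which encodes PKR, had 2591 UMIs (39.2 CPM, 37.7 to 40.8) and 2676 UMIs (44.1 CPM, 42.5 to 45.8), which is a ratio of 0.17 (0.091 to 0.25) on the log2 scale. Both intervals lay above 0, and neither gene came near 1.5-fold. The opposite strand of Eif2ak2 holds Gm26637, with 223 and 203 UMIs, and that of Adar holds Chrnb2, with 39 and 47 UMIs. Adar is a plus-strand gene of chromosome 3 from 89715022 to 89753446 and Eif2ak2 a minus-strand gene of chromosome 17 from 78852564 to 78882573.

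Among the genes that act on DNA or nucleotides, Samhd1 gave the most UMIs of all members and Trex1 none. Samhd1, a phosphohydrolase that degrades dNTPs, had 6072 UMIs (91.9 CPM, 89.6 to 94.3) and 6660 UMIs (109.8 CPM, 107.2 to 112.5), which is a ratio of 0.26 (0.21 to 0.31) on the log2 scale. Aim2, the sensor of double-stranded DNA that assembles an inflammasome, had 269 UMIs (4.07 CPM, 3.60 to 4.59) and 225 UMIs (3.71 CPM, 3.24 to 4.23), which is a ratio of -0.13 (-0.40 to 0.13) on the log2 scale. The difference in Aim2 over all kept cells did not exceed counting error. Samhd1 lies on the minus strand of chromosome 2 from 157097533 to 157135265, and Aim2 is a plus-strand gene of chromosome 1 from 173350879 to 173466040, where Cadm3 overlaps its annotation on the opposite strand and had 89 and 99 UMIs.

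Zbp1, the sensor of Z-form nucleic acid, had 0 UMIs in 6838 cells of the oil-labelled library, which allows a share of cells with a UMI of up to 0.0439%, and 1 UMI in the tamoxifen-labelled library. Trex1, the main cytosolic DNA exonuclease, had 0 UMIs in both libraries, which allows up to 0.0439% and 0.0464% of cells. The annotation places Trex1 (chromosome 9, 109057933 to 109059734, minus strand) wholly inside Atrip, a DNA damage response gene on the same strand with the same 3′ end at 109057933. Reads of the shared 3′ end cannot be assigned to Trex1 alone, so its count of 0 does not give its level. Atrip itself had 678 and 545 UMIs and a ratio of -0.19 (-0.36 to -0.028) on the log2 scale.

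The share of cells with at least 1 UMI was also higher in the tamoxifen-labelled library for the RIG-I-like receptors. The other members followed the split in levels only in part. Each cell was thinned to 3000 UMIs so that depth did not enter, which left 6330 and 6127 cells and set aside 508 and 345 shallower ones. Ddx58 was detected in 4.60% of thinned cells (4.09 to 5.14) of the oil-labelled library and in 6.90% (6.28 to 7.57) of the tamoxifen-labelled library. Ifih1 was detected in 3.29% (2.86 to 3.75) and 4.99% (4.46 to 5.57), and Dhx58 in 1.79% (1.47 to 2.14) and 3.44% (3.00 to 3.93). The intervals of all RIG-I-like receptors were thus separate. How often such intervals were separate over all genes was not counted. Without thinning, the shares were 11.3% and 16.3% for Ddx58, 8.99% and 12.0% for Ifih1, and 4.62% and 8.61% for Dhx58.

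Of the other members, Samhd1 was detected in 27.1% (26.1 to 28.2) and 29.6% (28.5 to 30.8) of thinned cells, against 53.3% and 56.3% before thinning. Eif2ak2 was found in 10.3% (9.53 to 11.0) and 11.7% (10.9 to 12.5), and Adar in 6.33% (5.75 to 6.96) and 7.25% (6.61 to 7.92), so that the intervals overlapped for both. Aim2 was found in 1.55% (1.26 to 1.88) and 1.29% (1.02 to 1.60). For Mavs the draw gave 11.4% (10.7 to 12.2) and 9.73% (9.00 to 10.5), lower in the tamoxifen-labelled library with separate intervals. The mean over all possible draws was closer together, at 10.6% and 10.0%. Thinned to 2000 UMIs, Mavs was found in 6.99% (6.38 to 7.63) and 6.43% (5.84 to 7.06), so that these intervals overlapped. Before thinning, Eif2ak2 was in 28.3% and 29.4% of cells, Adar in 16.7% and 19.7% and Aim2 in 3.66% and 3.14%. Mavs was then in 28.6% (27.49 to 29.65) and 26.4% (25.30 to 27.47), again with separate intervals. All cells came from 1 sorted population, so the background from free RNA could not be read from a cell type that lacks these genes.

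Detection was sparse, and most cells with a UMI of a sensor gene had only 1. Among cells with Dhx58 before thinning, 91.8% had exactly 1 UMI in the oil-labelled library and 86.4% in the tamoxifen-labelled library, and for Samhd1 these shares were 57.8% and 52.2%. The most UMIs in 1 cell were 8 and 19 for Samhd1 and 4 and 6 for Ddx58. The variance over cells relative to the mean, which is 1 when transcripts are spread at random over cells of equal depth, was 1.25 and 1.39 for Samhd1 and 1.02 and 1.15 for Dhx58 in thinned cells. No sensor gene was detected in 49.0% (47.8 to 50.3) and 46.0% (44.7 to 47.2) of thinned cells. Cells with at least 3 different sensor genes made up 2.02% (1.69 to 2.40) and 3.48% (3.03 to 3.97).

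Because the libraries differed in cell cycle phase, the sensor genes were followed within phases. Several of them varied more with phase than between libraries. Samhd1 was at 156.1 CPM in G1 cells and 63.2 CPM in S and G2M cells of the oil-labelled library, and at 165.0 and 66.6 CPM in the tamoxifen-labelled library. This gave log2 ratios of S and G2M over G1 of -1.30 (-1.38 to -1.23) and -1.31 (-1.38 to -1.24). SAMHD1 lowers the dNTP pool that DNA replication draws on. Ddx58 was lower in S and G2M cells by a similar factor, with log2 ratios of -1.20 (-1.40 to -1.01) and -1.14 (-1.30 to -0.97). Dhx58 gave -1.42 (-1.74 to -1.11) and -0.89 (-1.12 to -0.66), and Aim2 gave -1.08 (-1.45 to -0.72) and -1.16 (-1.57 to -0.76).

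The remaining members varied less with phase. Ifih1 was lower in S and G2M cells with log2 ratios of -0.41 (-0.64 to -0.17) and -0.59 (-0.78 to -0.39), and Adar with -0.39 (-0.56 to -0.22) and -0.58 (-0.73 to -0.44). Mavs was level, at 0.040 (-0.084 to 0.17) and -0.094 (-0.21 to 0.026). Eif2ak2 alone was higher in S and G2M cells in both libraries, by 0.18 (0.055 to 0.31) and 0.15 (0.033 to 0.26) on the log2 scale. The sensors of double-stranded RNA thus did not share 1 pattern over the cycle.

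**Figure D2:**
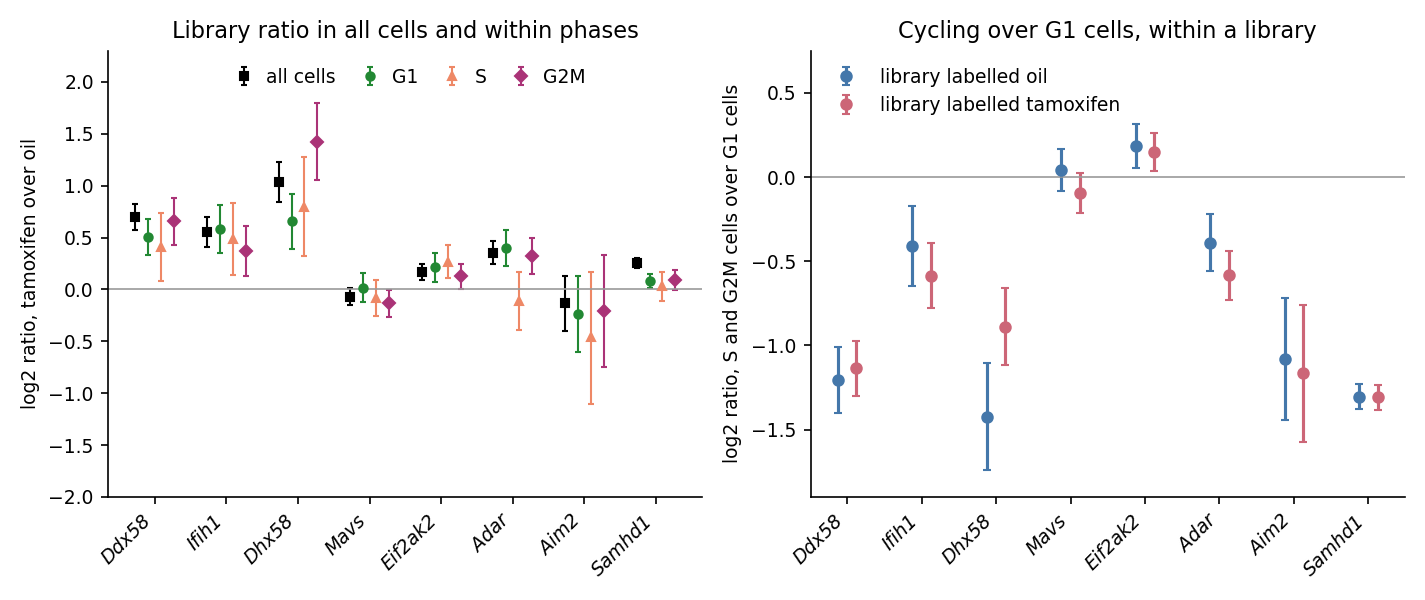
Left, log2 ratio of tamoxifen over oil for each sensor gene in all cells and in G1, S and G2M cells; right, log2 ratio of S and G2M cells over G1 cells within each library, both with 95% exact binomial intervals. The Samhd1 ratio is 0.26 in all cells and between 0.031 and 0.094 within phases, and the right panel shows Samhd1, Ddx58, Dhx58 and Aim2 well below 0 and Eif2ak2 above it.

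Within phases, the interval of the ratio between libraries stayed above 0 for the RIG-I-like receptors, and the ratio shrank for Samhd1. The ratio of Ddx58, 0.70 over all cells, was also lower in each phase. For Ddx58 it was 0.51 (0.33 to 0.68) in G1, 0.41 (0.077 to 0.74) in S and 0.66 (0.43 to 0.88) in G2M cells. For Ifih1 it was 0.58 (0.35 to 0.82), 0.49 (0.14 to 0.83) and 0.37 (0.13 to 0.61), and for Dhx58 0.65 (0.39 to 0.92), 0.79 (0.32 to 1.27) and 1.42 (1.06 to 1.79). Samhd1, at 0.26 over all cells, had ratios of 0.080 (0.011 to 0.15), 0.031 (-0.11 to 0.17) and 0.094 (-0.0015 to 0.19), so that it was within counting error of 0 in S and G2M cells. The mean of the ratios within phases was 0.076 for Samhd1. For Ddx58 it was 0.54, under 1.5-fold.

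Eif2ak2 stayed above 0 in G1 at 0.21 (0.070 to 0.35), in S at 0.27 (0.11 to 0.43) and in G2M at 0.13 (0.0056 to 0.25). Adar was above 0 in G1 at 0.40 (0.23 to 0.57) and in G2M at 0.32 (0.15 to 0.49), but gave -0.11 (-0.39 to 0.17) in S cells. Mavs gave 0.017 (-0.12 to 0.16), -0.082 (-0.26 to 0.093) and -0.13 (-0.26 to -0.0070), and the Aim2 intervals included 0 in every phase.

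The sensor genes also varied with the interferon response of single cells. An index was made for each thinned cell from the UMIs of 11 interferon-induced genes, none of them a member: Isg15, Ifit1, Ifit3, Rtp4, Irf7, Oasl2, Oas3, Xaf1, Slfn5, Ifi27l2a and Ifi47. Cells with no index UMI made up 63.0% of the oil-labelled library and 51.8% of the tamoxifen-labelled library. Cells with 6 or more made up 0.585% and 4.57%. These are ranges of a score and not cell types, and 9 of the 10 index genes with at least 100 UMIs were themselves at least 1.5-fold higher in the tamoxifen-labelled library.

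Within each library, cells with 3 or more index UMIs were set against cells with 0, that is 237 against 3985 cells in the oil-labelled library and 769 against 3172 in the tamoxifen-labelled library. Dhx58 went from 4.94 to 15.5 CPM and from 5.99 to 45.9 CPM, log2 ratios of 1.65 (0.57 to 2.59) and 2.94 (2.46 to 3.43). Ddx58 went from 12.8 to 42.2 CPM and from 17.1 to 68.5 CPM, log2 ratios of 1.72 (1.11 to 2.29) and 2.00 (1.67 to 2.32). Ifih1 went from 10.7 to 26.7 CPM and from 11.9 to 49.0 CPM, log2 ratios of 1.32 (0.54 to 2.02) and 2.04 (1.66 to 2.43). All RIG-I-like receptors were therefore higher in index-high cells of both libraries.

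Adar and Eif2ak2 showed the same direction with lower ratios. Eif2ak2 gave 0.69 (0.18 to 1.17) and 1.04 (0.77 to 1.31), and Adar gave 0.65 (-0.018 to 1.26) and 1.28 (0.94 to 1.61). Samhd1 gave 0.93 (0.68 to 1.17) and 0.88 (0.73 to 1.04). For Mavs the ratios were 0.26 (-0.27 to 0.76) and 0.39 (0.056 to 0.72), and for Aim2 they were 0.12 (-1.80 to 1.55) and -0.38 (-1.68 to 0.72). The single Zbp1 UMI lay in a cell with 6 or more index UMIs.

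Index-high cells were more often in G1, at 67.5% against 39.2% of cells in the oil-labelled library and 71.4% against 50.2% in the tamoxifen-labelled library. The comparison was therefore repeated within G1 cells, a choice made after seeing the data. Ddx58 then gave 1.22 (0.48 to 1.91) and 1.65 (1.28 to 2.03), Ifih1 1.45 (0.55 to 2.27) and 1.77 (1.29 to 2.25), and Dhx58 1.01 (-0.54 to 2.31) and 2.70 (2.09 to 3.32). Samhd1 dropped to 0.37 (0.073 to 0.66) and 0.50 (0.32 to 0.67). Eif2ak2 gave 0.58 (-0.16 to 1.25) and 1.41 (1.06 to 1.76), and Adar 0.55 (-0.27 to 1.30) and 1.36 (0.95 to 1.76). In the oil-labelled library, where only 160 such cells were left, the intervals of Dhx58, Eif2ak2 and Adar thus included 0.

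**Figure D3:**
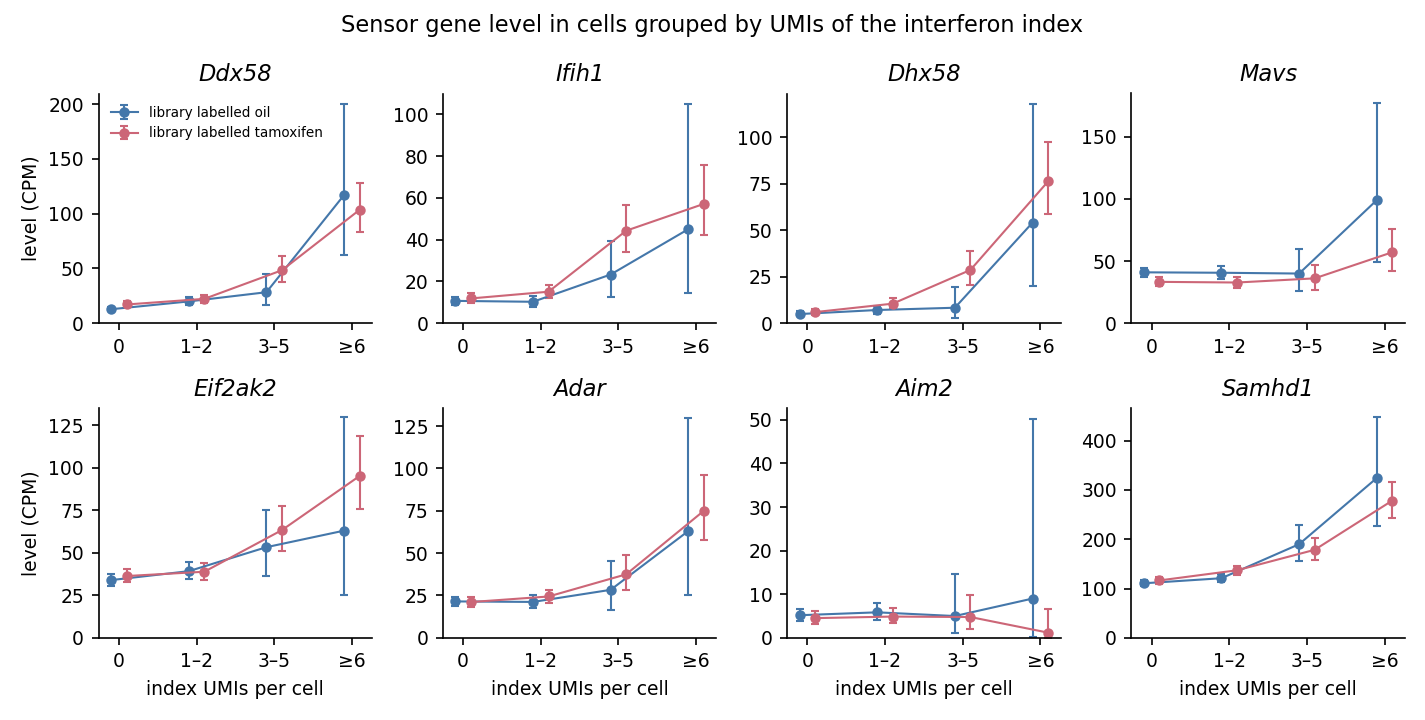
Level in CPM of each sensor gene (1 panel a gene, linear axis from 0) in thinned cells with 0, 1 to 2, 3 to 5 and 6 or more UMIs of the 11 index genes, by library, with 95% exact Poisson intervals. Dhx58 reaches 76.2 CPM and Ddx58 103.6 CPM in the last bin of the tamoxifen-labelled library, whereas Aim2 does not increase; the last bin of the oil-labelled library holds 37 cells and its intervals are wide.

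The ratio of the members as a sum was next taken at the same index count in thinned cells. The same count need not stand for the same index genes. Before thinning, Ifi47 gave 3783 of 11092 index UMIs in the oil-labelled library and 3469 of 20686 in the tamoxifen-labelled library. In cells with 0 index UMIs, all members together gave a log2 ratio of tamoxifen over oil of 0.036 (-0.044 to 0.11). The ratio of 0.26 over all kept cells was taken without thinning, so the values also differ in how cells are weighted. Among single genes in cells with 0 index UMIs, Ddx58 was at 0.42 (0.093 to 0.75) and Mavs at -0.30 (-0.51 to -0.092), and the intervals of the other members with at least 100 UMIs included 0. With 1 to 2 index UMIs, the sum gave 0.11 (0.013 to 0.20), Ifih1 0.55 (0.089 to 1.03), Dhx58 0.56 (0.0017 to 1.14), Samhd1 0.18 (0.040 to 0.32) and Mavs -0.31 (-0.58 to -0.043). The sum gave 0.23 (0.0092 to 0.45) with 3 to 5 index UMIs and -0.056 (-0.38 to 0.29) with 6 or more. In cells with 3 to 5 index UMIs, Dhx58 had 5 and 42 UMIs and a ratio of 1.78 (0.44 to 3.48) on the log2 scale, and Ifih1 14 and 65 UMIs and a ratio of 0.93 (0.077 to 1.87) on the log2 scale. With 6 or more, the intervals of each of the 8 sensor genes included 0.

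Clusters gave a further view of how the sensor genes were spread over the leukemia cells. Both libraries were clustered together without the sensor genes, interferon genes and genes that differed 1.5-fold or more between libraries, which gave 8 clusters, named here by number and leading genes. Clusters 0 (Klf2, S100a6, Mcpt1, Fxyd5, Mcpt4) and 4 (Cx3cr1, Cpa3, Abca1, Trnp1, Chst1) held mostly G1 cells, and clusters 1 (Ung, Hells, Cdt1, Mcm4, Dtl) and 2 (Hist1h1b, Hist1h2ab, Hist1h2ap, Hist1h2ae, Top2a) mostly cycling ones. Cluster 3 (Tac2, Isg15, Hba-a2, Cldn13, Slc2a1) made up 12.5% and 18.02% of the libraries. Cluster 5 (Crebrf, Zfp787, Klhl24, Ptbp2, Ginm1) made up 1.08% and 14.9%, so that 92.9% of its cells came from the tamoxifen-labelled library and it may stand for that library rather than for a kind of cell. Cluster 7, at 2.46% and 0.912%, had a median of only 1207 UMIs per cell.

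Samhd1 was at 197.2 and 238.3 CPM in cluster 0 and at 220.5 and 228.9 CPM in cluster 4, against 64.7 and 66.4 CPM in cluster 1 and 54.1 and 51.2 CPM in cluster 2. Ddx58 was likewise higher in cluster 0 than in cluster 2, with 26.9 and 34.8 CPM in cluster 0 and 8.24 and 9.66 CPM in cluster 2. Aim2 was at 12.0 and 10.7 CPM in cluster 4 and at 1.77 and 2.25 CPM in cluster 2. Mavs was at 53.5 and 57.2 CPM in cluster 3 and at 26.6 and 29.99 CPM in cluster 0, the reverse of Samhd1 in these clusters. Eif2ak2 stayed between 34.8 and 48.7 CPM over both libraries in clusters 0, 1, 2 and 3.

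**Figure D4:**
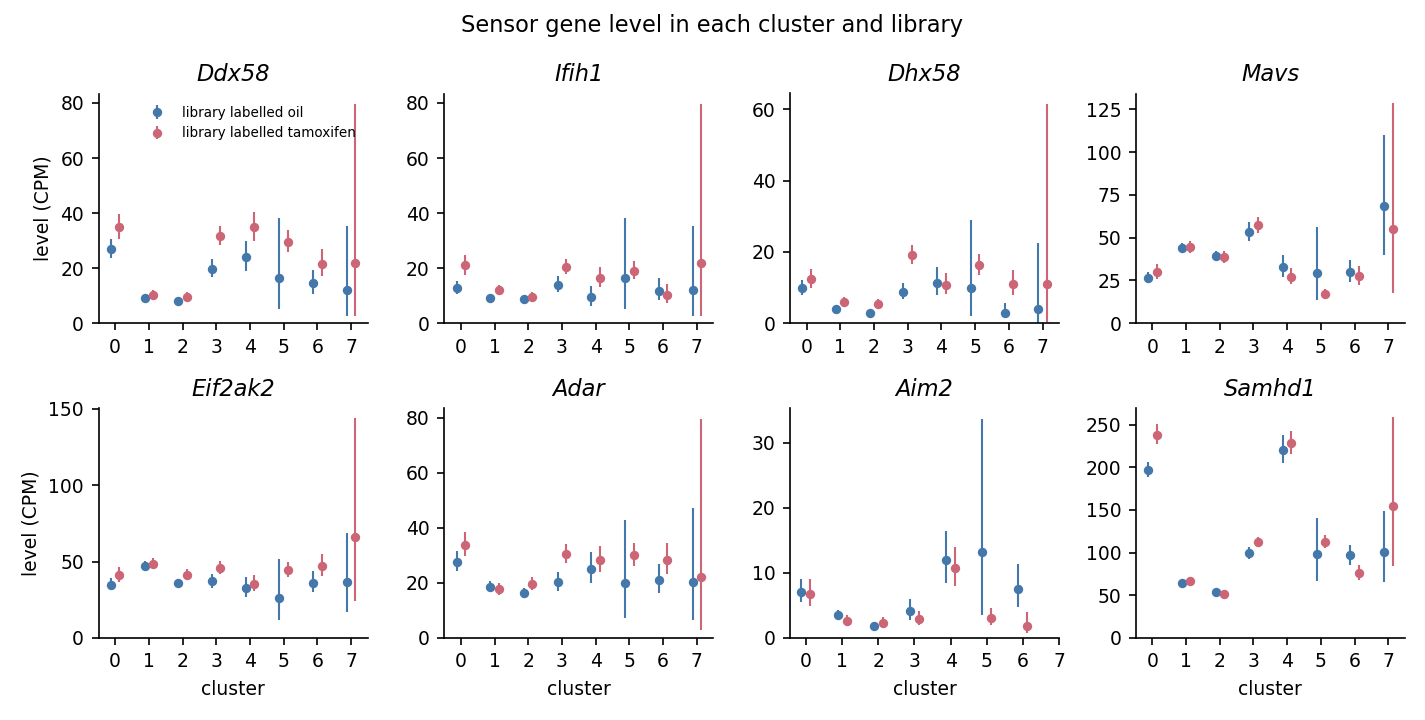
Level in CPM of each sensor gene (1 panel a gene, linear axis from 0) in clusters 0 to 7, by library, with 95% exact Poisson intervals. Samhd1 stands above 190 CPM in clusters 0 and 4 and below 70 CPM in clusters 1 and 2 in both libraries; cluster 5 of the oil-labelled library (74 cells) and cluster 7 have wide intervals.

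Between libraries, Ddx58 and Eif2ak2 were higher in the tamoxifen-labelled library in 8 of 8 clusters, and the interval lay above 0 in 4 for each. Ifih1, Dhx58 and Adar were higher in 7 of 8, with intervals above 0 in 4, 4 and 3. At resolution 1, Ddx58, Eif2ak2, Dhx58 and Adar were each higher in 12 of 14 clusters and Ifih1 in 11 of 14. At resolution 0.3, Ifih1 was higher in 5 of 6 clusters and each of the others in 6 of 6. In cluster 7 of the main 8, Ddx58 had only 3 and 2 UMIs and Eif2ak2 9 and 6. Such counts of clusters, here and below, were not taken over all genes, so they have no reference. In cluster 3, Dhx58 had a log2 ratio of 1.12 (0.70 to 1.54), Ddx58 of 0.69 (0.40 to 0.98) and Adar of 0.59 (0.30 to 0.88). In cluster 6, led by Anxa2 and Nusap1, Dhx58 had 9 and 41 UMIs and a ratio of 1.91 (0.84 to 3.13) on the log2 scale. Mavs was higher in 3 of 8 clusters, and its interval included 0 in each of the 8.

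Samhd1 was higher in 6 of 8 clusters, with the interval above 0 in clusters 0 and 3 and below 0 in cluster 6, at -0.35 (-0.59 to -0.10). Aim2 was higher in 1 of the 7 clusters with a UMI, and its interval lay below 0 in clusters 5 and 6, where it had 4 and 22 UMIs and 23 and 7 UMIs. With clusters weighted alike in both libraries, the ratio was 0.48 for Ddx58, under 1.5-fold, 0.63 for Dhx58 and 0.15 for Samhd1, and that of Aim2 was -0.44, outside its counting interval over all cells. Without clusters 5 and 7 the Mavs ratio was 0.036 (-0.047 to 0.12) in place of -0.069.

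Over the 16 combinations of cluster and library, the pattern of each sensor gene with at least 1000 UMIs was set beside that of 7993 other genes by the correlation of log2(CPM + 1), given as a description because the points share libraries, depth and cell cycle. All points counted alike, and some rest on few UMIs: in cluster 7, Dhx58 had 1 UMI in each library and Ddx58 had 3 and 2. Ddx58 was most like Mxd1 (r = 0.96), Zrsr1 (0.93) and Adar (0.92). Adar was in turn most like Ddx58, followed by Atxn7l1 and Mxd1 (0.90 each). Dhx58 was most like Zrsr1 (0.92), Gm20234 (0.91) and Parp9 (0.88). Samhd1 was most like Carmil1 (0.98), Rab27b and Rreb1 (0.96 each), and Mavs most like Efnb1 and Oat (0.90 each) and Trappc11 (0.87). Eif2ak2 was most like Rev1 (0.86), Gatc (0.85) and Mfsd2b (0.84), and Ifih1, with the lowest likeness to any gene, most like Slc25a36, Eif2ak1 (0.80 each) and Bsdc1 (0.79).

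Among the other genes of these pathways, the 2-5A synthetases held 4 of the 5 that passed 1.5-fold. Of 57 listed pathway genes with at least 100 UMIs that are not members, 5 were at least 1.5-fold higher, against 2.09% of all genes, and 0 at least 1.5-fold lower, against 1.27%, and their median log2 ratio was -0.039. The 2-5A synthetases make the messenger that activates RNase L when they bind double-stranded RNA. Of 7 such genes, 4 were at least 1.5-fold higher: Oasl2 (2.26), Oas2 (1.32), Oas3 (0.94) and Oas1g (0.60, 49 and 68 UMIs). Oas1a had a ratio of -0.062 (-0.26 to 0.13), and the median of the list was 0.60. Oasl2 and Oas3 are also index genes.

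Regulators of RNA sensing lay on both sides of 0. Of 15 genes, the interval lay above 0 for 5, against 19.3% of all genes, and below 0 for 5, against 39.8%, with a median of -0.027. Rnf135, a ubiquitin ligase that acts on RIG-I, was highest at 0.26 (0.050 to 0.47), and Ddx3x, an RNA helicase, lowest at -0.36 (-0.41 to -0.32). Among genes that carry the signal onward from MAVS, Irf7, the interferon-induced factor that amplifies interferon transcription, went from 9.37 to 28.0 CPM with a log2 ratio of 1.58 (1.45 to 1.72). It was the only one of 9 to pass 1.5-fold. Tradd was lowest at -0.31 (-0.38 to -0.23), and the median was -0.022. Of 8 listed type I interferon genes, 6 had no UMI in either library, and Ifnk and Ifne had 1 UMI each in the tamoxifen-labelled library.

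Of 8 genes of the cGAS and STING branch and other DNA handling, none passed 1.5-fold, the interval lay above 0 for 2 and below 0 for 5, against the same 19.3% and 39.8% of all genes, and the median was -0.14. Dnase2a, a lysosomal DNase, was highest at 0.31 (0.24 to 0.37) and Rnaseh2b, a subunit of the enzyme that removes ribonucleotides from DNA, lowest at -0.37 (-0.42 to -0.31). For the endosomal Toll-like receptors, Tlr3, Tlr8 and Tlr9 had 0 UMIs in both libraries and Tlr7 had 0 and 5. Their chaperone Unc93b1 gave 0.41 (0.19 to 0.64) and the adaptor Myd88 -0.17 (-0.25 to -0.089), the highest and lowest of 6 genes with a median of -0.030.

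Genes through which ZBP1 and AIM2 act were lower in the tamoxifen-labelled library. For 6 of 6 death and inflammasome partners the interval lay below 0, against 39.8% of all genes, from Casp8 at -0.10 (-0.17 to -0.035) to Ripk3, the necroptosis kinase, at -0.55 (-0.60 to -0.49). Other scalings raised every log2 ratio by 0.063 to 0.081, which brings 0 inside the Casp8 interval. Shares over all genes were not taken under those scalings. Casp1, the protease of the AIM2 inflammasome, had 6 and 1 UMIs. Of 6 paralogs of PKR and partners in eIF2 signaling, the interval lay below 0 for 4, against 39.8% of all genes, and above 0 for 1, against 19.3%, with a median of -0.24. Eif2ak1, the heme-regulated eIF2 kinase, was highest at 0.32 (0.25 to 0.39), and Ppp1r15a, which directs the removal of the phosphate that PKR places on eIF2, lowest at -0.47 (-0.54 to -0.40). Adarb1, the paralog of Adar, had 1 UMI in each library.

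**Figure D5:**
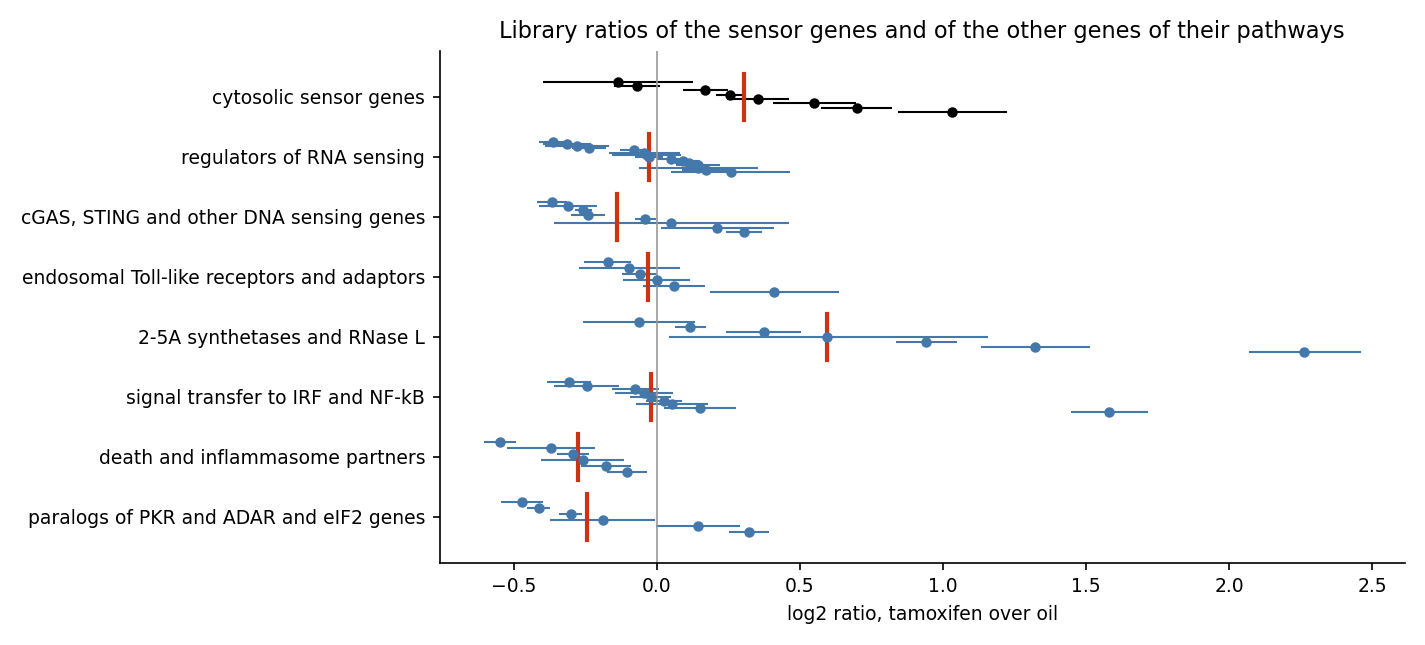
Log2 ratio of tamoxifen over oil for the sensor genes (black) and for the other listed genes of their pathways (blue) with at least 100 UMIs, with 95% exact binomial intervals; red bars mark list medians. The medians of the sensor genes (0.31) and of the 2-5A synthetases and RNase L (0.60) lie above 0, and those of the other 6 lists lie between -0.28 and -0.022, of which those at -0.030, -0.027 and -0.022 turn positive under other scalings.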

How the data were processed

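Gene by cell UMI counts, without normalization, were deposited for 2 libraries by the authors, who mapped reads of the 10x Chromium 3′ V3 kit to mm10 with Cell Ranger 3.0.2 per the file headers and labels. Seurat is also named in the submitters' processing notes. The sensor genes and the other gene lists were chosen with earlier results of these data known. Cells with 500 or more genes and no more than 10% mitochondrial UMIs were kept. Scrublet marked 0.0731% and 0% of barcodes as doublets and so did not work, and no doublets were removed. Counts were summed per library and divided by its total. CPM has exact Poisson, ratios exact conditional binomial and shares exact Clopper-Pearson intervals at 95%. A count of 0 allows 3 counts. Of these steps, only the ratio intervals were tested on simulated counts, as was the thinning described below. The counts for the ratios were Poisson draws, so extra spread between cells was not tested. PCR duplicates were collapsed by UMI.

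The index, phases (43 S and 54 G2M genes, scanpy) and shares used cells thinned once to 3000 UMIs. Phase ratios used all UMIs of those cells. Clusters came from Seurat (2000 variable features without 460 genes, 20 principal components, Louvain resolution 0.5). Named genes were all members and, of each other list, genes past 1.5-fold or else the highest and lowest ratio, with low counts where a member acts through the gene. Transcripts are counted once at the 3′ end whatever their length, and capture differs between genes, so no order of levels between genes is drawn. Positions are from GENCODE M21 (30934 of 31053 identifiers found) and sequences from RefSeq on GRCm38.p6. Alternatives were other cell filters, TMM (edgeR) and median-ratio (DESeq2) scaling, totals free of ribosomal protein and mitochondrial genes, equal weight per cell, weighting by phase or cluster, count minimums of 20 and 500, thinning to 2000 and 5000 UMIs and resolutions of 0.3 and 1. Scripts ran in R 4.3.3 (Matrix 1.6.5, Seurat 5.3.0, DESeq2 1.42.0, edgeR 4.0.16) and Python 3.11.15 (matplotlib 3.10.9, pandas 2.3.3, numpy 2.4.6, scanpy 1.11.5, scipy 1.17.1).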

Additional observations from a re-analysis of the deposited data

Results flagged for a closer look

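Barcodes that the cell filter left out, 936 in the oil-labelled library and 839 in the tamoxifen-labelled library, also held transcripts of the sensor genes. They gave 1022 and 1224 UMIs, which is 243.7 and 280.3 CPM. The log2 ratio of tamoxifen over oil was 0.20 (0.081 to 0.32) for the sum, 0.82 (0.33 to 1.32) for Ddx58 and 0.57 (0.047 to 1.11) for Ifih1. For Dhx58 it was 0.57 (-0.11 to 1.27), for Samhd1 0.16 (-0.019 to 0.34), for Adar 0.37 (-0.060 to 0.80), for Mavs 0.10 (-0.25 to 0.45), for Aim2 -0.058 (-0.98 to 0.86) and for Eif2ak2 -0.16 (-0.48 to 0.17), the reverse in sign of its ratio in kept cells, though its interval includes 0.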

How the results depend on the processing

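No paired analysis was possible because there is only 1 library per group. The median log2 ratio of the sensor genes, 0.31, was 0.40 in cells with 1000 or more genes and no more than 5% mitochondrial UMIs (673 and 771 cells), 0.37 with TMM or median-ratio scaling, 0.39 with ribosomal protein and mitochondrial genes left out of the total, and 0.24 as the mean of the ratios within phases. The number of sensor genes at least 1.5-fold higher, 2, was 1 (Dhx58) both within phases and with clusters weighted by the cells of both libraries. These changes in composition weight the same cells differently. The number was 3, with Ifih1 added, under the stricter cell filter, with TMM, median-ratio scaling or the reduced total, and with equal weight per cell. The interval lay above 0 for 6 sensor genes, and for 4 under the stricter cell filter, where those of Eif2ak2 (-0.052 to 0.49) and Adar (-0.032 to 0.70) included 0. Shares over all genes were not taken under the alternatives. The cause of the other changes was not tested. Of the other pathway genes, 0 were at least 1.5-fold lower, against 2 (Rnaseh2a and Ripk3) under the stricter cell filter and 1 (Ppp1r15a) without clusters 5 and 7, an alternative chosen after seeing the data. Of 95 ratios of single sensor genes under alternatives, 81 stayed inside the counting interval, 14 moved out of it and 0 of those that excluded 0 changed sign. The range was 0.48 to 1.003 for Ddx58, 0.48 to 0.80 for Ifih1, 0.63 to 1.14 for Dhx58, -0.092 to 0.036 for Mavs, 0.15 to 0.25 for Eif2ak2, 0.29 to 0.43 for Adar, -0.44 to -0.054 for Aim2 and 0.076 to 0.40 for Samhd1. Of 24 differences in shares of cells, 10 moved with the thinning depth and 0 changed sign. There is 1 library of pooled mice per group, so no interval here covers the spread between animals, and Dhx58, Ifih1 and Aim2 rest on at most 914 UMIs per library.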
